A study of Homo sapiens with 19 samples.

Results

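The sites described here are 108 of the 3874 V5 intervals of C4-2 cells with wild-type (WT) E2F1 that received doxycycline and then the LSD1 inhibitor GSK2879552. Each overlapped an interval of the WT list with GSK2879552 alone, touched no RB interval of C4-2 or VCaP cells, and lacked an interval in at least 1 of the 8 V5 lists. The sites were thus chosen by the called intervals of these lists, and the fold and read values in the WT inhibitor pair describe the choice. Of the 3874 intervals, 906 (23.4%) had a counterpart in the WT GSK2879552 list, and 735 of these touched an RB interval. Of the remaining 171, 63 had an interval in all 8 V5 lists and were left out, which gave the 108. Chromatin immunoprecipitation with sequencing (ChIP-seq) had been used to map RB and V5-tagged E2F1 in 19 libraries of 10 groups, and the authors deposited 1 interval list per group, 10 lists with 203381 intervals in all. With 1 list for each group, the spread between replicates cannot be measured, and no p-value was computed.

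C4-2 is an established castration-resistant prostate cancer cell line, and VCaP is another prostate cancer line with abundant androgen receptor. All cells grew in medium with 5% charcoal-stripped serum, which is low in steroids. The V5 lists come from C4-2 lines in which tetracycline controls an E2F1 transgene, K185R mutant or WT, with 2 libraries per treatment. The treatments were doxycycline (0.25 ug/ml, 3 days) followed by GSK2879552 (50 uM, 24 hours), GSK2879552 alone at the same dose and time, doxycycline alone, and none. RB was mapped in untreated C4-2 cells with 2 libraries and in untreated VCaP cells with 1. The sources used here do not say whether a line is 1 clone, nor whether cells without doxycycline held any tagged E2F1. For that reason V5 intervals are not called E2F1 binding sites below. The deposited names of the V5 lists say siRB and siNTC where the labels say doxycycline and untreated. The groups follow the labels throughout.

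E2F1 is a transcription factor that pairs with a DP protein and binds promoters of genes for DNA replication and cell division. RB is a pocket protein that binds E2F1 on chromatin and holds its target genes down. LSD1 (KDM1A) is a demethylase that removes methyl groups from histone H3 and from some other proteins, and GSK2879552 blocks its catalytic site. In K185R, arginine takes the place of a lysine of E2F1.

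Most of the 108 sites also had V5 intervals outside the pair of WT inhibitor lists. In all, 90 of 108 (83.3%) had an interval in at least 1 of the 6 other V5 lists, 78 (72.2%) in at least 1 K185R list, and 86 (79.6%) in at least 1 list without GSK2879552. Over all 3874 intervals these shares were 54.4%, 40.4% and 52.5%. Of the 379 shared intervals that touched RB and were not in all 8 lists, 73.6% were in at least 1 of the 6 other lists and 71.0% in at least 1 list without GSK2879552. Of the 2344 intervals with neither RB nor a counterpart in the WT GSK2879552 list, 44.2% and 42.3% were. Thus 22 sites were limited to lists with GSK2879552, 4 of them with a K185R list and 18 in the WT pair alone. Of the 108, 66 had intervals in a K185R list and in a further WT list, 12 in a further WT list without any K185R list, and 12 in a K185R list without a further WT list. The label of WT sites under the inhibitor therefore describes how the sites were chosen but not where V5 intervals were found.

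**Figure D1:**
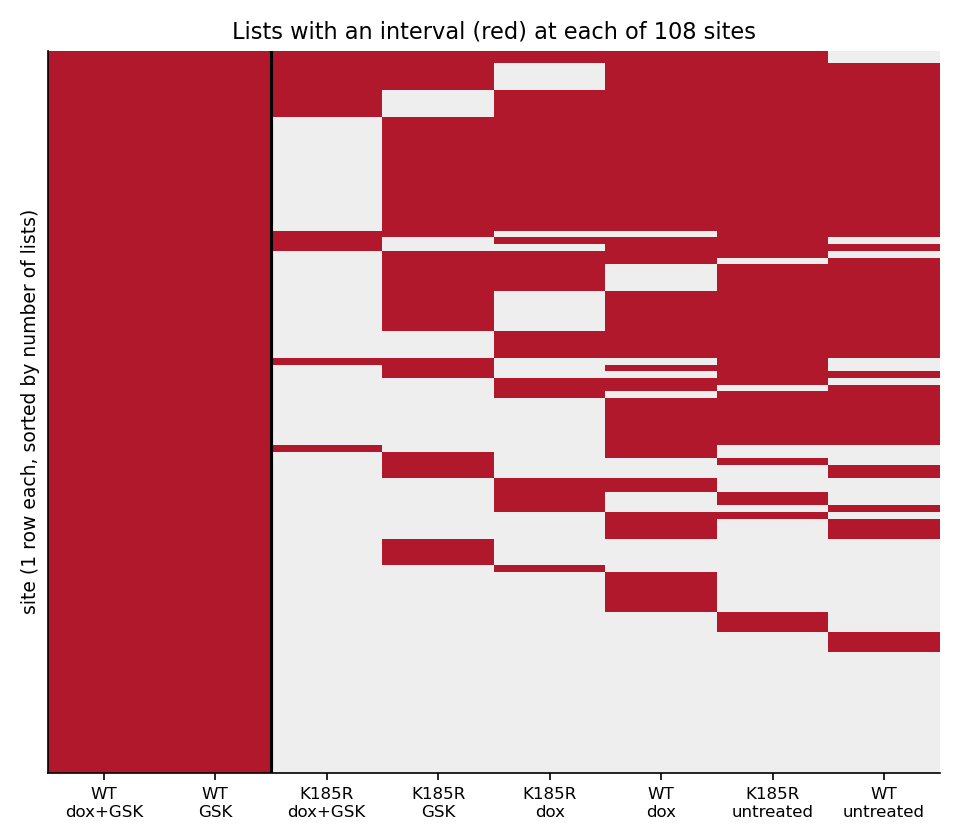
Each row is 1 of the 108 sites and each column 1 of the 8 V5 lists, with red for an interval and grey for none. The 2 columns left of the black line chose the sites, so they are red throughout. Right of it, 27 sites at the top lack 1 list, and 18 at the bottom have no further interval.

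The count of sites differed widely among the 6 other lists. The K185R list with doxycycline and GSK2879552 had an interval at 15 sites (13.9%, 95% Wilson interval 8.6 to 21.7), against 15.6% of all 3874 WT intervals. The K185R GSK2879552 list had one at 47 sites (43.5%, 34.6 to 52.9), against 22.3% of all. The K185R doxycycline list had one at 43 sites (39.8%, 31.1 to 49.2), against 24.6% of all. The highest shares were thus not in the inhibitor lists of the mutant.

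The WT doxycycline list had an interval at 65 sites (60.2%, 50.8 to 68.9), against 35.4% of all 3874. The untreated K185R list had one at 64 sites (59.3%, 49.8 to 68.1), against 32.7%. The untreated WT list had one at 61 sites (56.5%, 47.1 to 65.4), against 31.1%. These intervals cover counting error over sites only, since sites are not replicates. The choice of sites also bears on the shares, because a site with intervals in all 8 lists is not among the 108, while such sites are among the 3874.

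The lists themselves differed in length and depth, and the shares followed this only in part. The K185R doxycycline list, for example, was longer than the K185R GSK2879552 list and the untreated WT list. It had an interval at fewer of the sites (39.8%, against 43.5% and 56.5%). The K185R lists held 3498 intervals with doxycycline plus GSK2879552, 9899 with GSK2879552, 22328 with doxycycline and 55681 untreated. The WT lists held 3874, 2805, 64025 and 15099 intervals in the same order. Depth ran from 0.716 reads per kilobase in the WT GSK2879552 list to 1.79 in the untreated K185R list, and the lowest summit in each V5 list had 3 reads. The part of length and depth in the shares was not tested. A missing interval means that none was called at this depth.

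At equal treatment, K185R and WT lists had close counts when untreated and differed with doxycycline. In untreated cells, 14 sites (13.0%) had an interval in K185R alone and 11 (10.2%) in WT alone, against 11.3% and 9.65% of all 3874 intervals. With doxycycline, 9 sites (8.33%) had one in K185R alone and 31 (28.7%) in WT alone, against 3.77% and 14.6% of all. With doxycycline the excess of WT alone was thus also present over the whole list and is not particular to these sites. It was also present among the 379 shared RB intervals, with 15 in K185R alone and 97 in WT alone, and among the 2344 unshared ones without RB, with 112 and 377. The untreated lists differed by class, with 23 and 126 shared RB intervals and 377 and 128 unshared ones in K185R alone and in WT alone. These contrasts have no replicate check.

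A pair of classes of the same WT list, which also hold no interval in all 8 lists, show where the 108 sites stood. One is the 379 intervals shared with the WT GSK2879552 list that touched an RB interval. The other is the 2344 intervals that touched no RB interval and had no counterpart in that list. An interval of the K185R doxycycline plus GSK2879552 list lay at 13.9% of the 108 sites, 5.01% of the shared RB intervals and 3.54% of the unshared ones. For the K185R GSK2879552 list these shares were 43.5%, 32.7% and 7.34%. For the K185R doxycycline list they were 39.8%, 19.5% and 13.1%, and for the untreated K185R list 59.3%, 30.9% and 22.4%.

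With intervals in all 8 lists left out, the WT doxycycline list had the same order of classes as the K185R lists. The untreated WT list did not. With doxycycline, 60.2% of the 108 sites, 41.2% of the shared RB intervals and 24.4% of the unshared ones had an interval. Untreated, the shares were 56.5%, 58.0% (Wilson interval 53.0 to 62.9) and 11.7%. Sites without RB and shared intervals at RB were thus within counting error of each other in the untreated WT list, while the Wilson intervals did not overlap in the WT doxycycline list (50.8 to 68.9 against 36.3 to 46.2) or in the untreated K185R list (49.8 to 68.1 against 26.4 to 35.7). At least 1 K185R list had an interval at 72.2% of the 108 sites (63.1 to 79.8) and at 47.2% of the shared RB intervals (42.3 to 52.3). The exclusion of intervals in all 8 lists took out 356 of the 735 shared intervals at RB and 63 of the 171 without RB. It thus lowered the shares of these classes to different degrees. With these intervals kept, the order of the shared classes reverses in both K185R lists with GSK2879552. Of the 171, 45.6% had an interval in the K185R doxycycline plus GSK2879552 list and 64.3% in the K185R GSK2879552 list. At RB these lists had an interval at all 356 and at 19 and 124 of the other 379, larger shares of the 735. The class order in these lists thus depends on the exclusion. The part of the exclusion in the other class differences was not tested, and the Wilson intervals do not cover it. No test of these class differences is possible over replicates, since each share comes from 1 pair of lists.

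**Figure D2:**
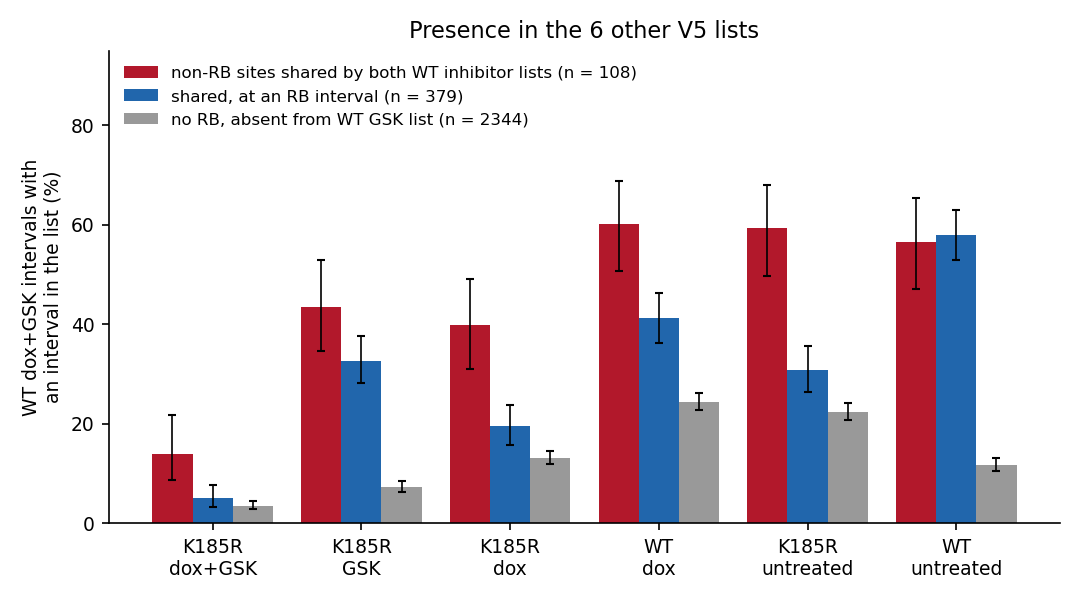
Bars give the percentage of WT doxycycline plus GSK2879552 intervals with an interval in each of 6 other V5 lists, for the 108 sites, the 379 shared intervals at RB and the 2344 unshared intervals without RB. Error bars are 95% Wilson intervals for counting error. No class holds intervals in all 8 V5 lists. Leaving them out lowers the shares of the 108 sites and of the shared intervals at RB to different degrees. The unshared intervals could not be in all 8. The first 2 classes meet in the untreated WT list, at 56.5% and 58.0%, and stand apart in the untreated K185R list, at 59.3% and 30.9%.

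The number of lists per site spread over the whole range that the choice allowed. There were 18 sites in 2 lists, 17 in 3, 14 in 4, 13 in 5, 19 in 6 and 27 in 7, with a median of 5. The median was 3 for the 379 shared RB intervals and 1 for the 2344 unshared intervals without RB. Among the 27 sites one list short of all 8, 17 lacked the K185R doxycycline plus GSK2879552 list, 4 the K185R GSK2879552 list, 4 the K185R doxycycline list and 2 the untreated WT list. That first list was the shortest of the K185R lists.

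The fold enrichment and summit reads below come from the pair of lists that chose the sites and are a description. Fold is the authors' ratio of summit reads to the local background. Summit reads and background were solved from the deposited fold and −log10 p. The 108 sites had folds of 3.25 to 10.3 with a median of 5.95 in the WT doxycycline plus GSK2879552 list, and of 2.97 to 9.68 with a median of 5.85 in the WT GSK2879552 list. The median summit had 7.5 reads in the first list and 7.0 in the second. The evidence per site was thin: 20 sites rested on 5 or fewer reads in both lists, and 15 had at least 10 in both.

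**Figure D3:**
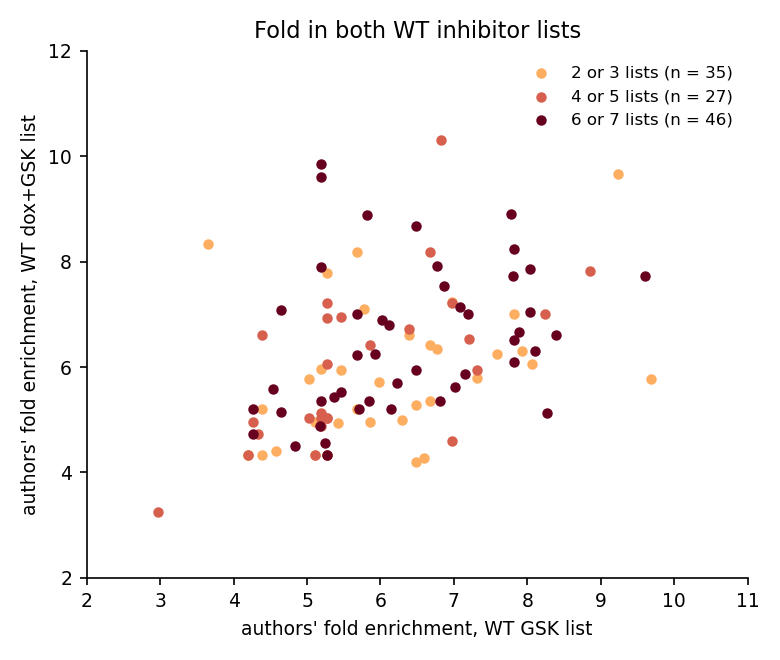
Each point is 1 of the 108 sites, placed by the authors' fold enrichment in the WT doxycycline plus GSK2879552 list (vertical axis) and in the WT GSK2879552 list (horizontal axis), and shaded by the number of V5 lists with an interval. Sites in 2 or 3 lists (n = 35), 4 or 5 (n = 27) and 6 or 7 (n = 46) share much the same range of folds.

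Shared RB intervals had more reads and unshared intervals without RB fewer. Of the 108 sites, 25.9% had 5 or fewer summit reads in the WT doxycycline plus GSK2879552 list, against 8.44% of the 379 shared RB intervals and 75.1% of the 2344 unshared ones. The smallest possible width, 191 bases, was found at 30.6%, 17.7% and 71.9%. The median local background was 2.16, 2.59 and 1.23 times the floor, which is the lowest background common in that list. Being shared with a second list favours stronger intervals, so these values follow partly from the choice.

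Sites in 7 lists had a median fold of 6.67 and 9.0 summit reads in the WT doxycycline plus GSK2879552 list, and sites in 2 lists 5.75 and 6.5 reads. In the WT GSK2879552 list these medians were 6.49 with 8.0 reads and 5.57 with 6.5 reads. Sites missing from a list also tended to be weaker. For the untreated K185R list, absent sites had a median of 6.0 reads in the WT doxycycline plus GSK2879552 list and present ones 8.0. For the K185R doxycycline plus GSK2879552 list the medians were 7 and 10 reads. An absent site seldom had an interval close by: at most 4 of the absent sites of any list had one within 500 bases.

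Where the 6 other lists had an interval at one of the 108 sites, it usually ranked high among all intervals of that list. The measure is the percentile of the authors' −log10 q within the list, so an average interval stands at 50. The median percentile was 74.2 in the K185R doxycycline plus GSK2879552 list (n = 15), 86.2 in the K185R GSK2879552 list (n = 47), 92.4 in the K185R doxycycline list (n = 43) and 97.2 in the untreated K185R list (n = 64). In WT lists it was 96.7 with doxycycline (n = 65) and 91.1 untreated (n = 61). In the untreated K185R list, 59 of 64 lay above the middle of the list and 45 in its top 10%.

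The unshared intervals without RB ranked lower in each of these lists. Their median percentile was 67.8, 72.0, 80.7 and 76.1 in the same order of K185R lists, and 62.1 and 68.9 in the WT lists with doxycycline and untreated. Shared RB intervals stood at 81.6 in the K185R list with doxycycline plus GSK2879552, 90 with GSK2879552, 94.7 with doxycycline and 92.9 untreated, and at 93.2 and 90.9 in WT lists. The distance between the summit in the WT doxycycline plus GSK2879552 list and that of the other list had a median of 20.0 to 53.0 bases over the 6 lists, and 35.0 bases in the WT GSK2879552 list. The share of summits within 100 bases was 66.7% in the K185R doxycycline plus GSK2879552 list, 78.7% in the K185R GSK2879552 list, 65.1% in the K185R doxycycline list and 84.4% in the untreated K185R list. In WT it was 78.7% with GSK2879552, 86.2% with doxycycline and 80.3% untreated. The unshared intervals without RB had 72.3%, 73.3%, 75.6% and 75.4% in the K185R lists in that order, and 75% and 81.1% in the WT lists with doxycycline and untreated. The 108 sites had lower shares than the unshared intervals in both K185R lists with doxycycline and in the untreated WT list, and higher shares in the other 3. The Wilson intervals overlapped in each of the 6 lists, though overlap alone does not show that a difference is within counting error. In the K185R doxycycline list, for example, they were 50.2 to 77.6 and 70.6 to 80.1. In the WT doxycycline list they were 75.7 to 92.5 and 71.3 to 78.4. The unshared share of 75% there lay just below the interval of the 108 sites. The differences were not tested. The shared RB intervals had shares of 85.1% to 89.5% in these lists.

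**Figure D4:**
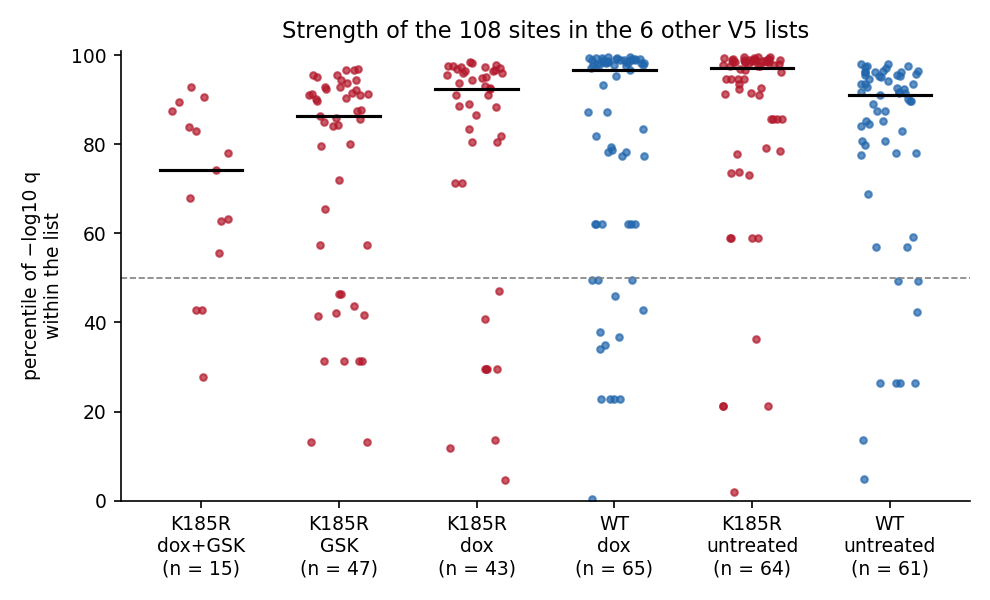
Each point is the interval of 1 site in one of 6 other V5 lists, placed by the percentile of its −log10 q among all intervals of that list. Red marks K185R lists, blue WT lists, black bars the medians (74.2 to 97.2), and the dashed line the middle of each list. Most points lie above that line in every list shown.

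Several of the 108 sites lay beside an RB interval without touching it, with distance counted between the nearest end positions. In 20 of 108 (18.5%, Wilson interval 12.3 to 26.9) an RB interval was within 1 kb, against 3.8% (3.1 to 4.65) of the 2344 unshared intervals without RB. It was within 100 bases at 8 sites and within 10 bases at 4. The near RB interval was from C4-2 alone at 7 sites, from VCaP alone at 7 and from both at 6. The near RB intervals of C4-2 had a median fold of 6.37, where that whole list had 5.69, and those of VCaP 5.5, where that list had 5.5. The median distance to RB was 29.4 kb for the 108 sites and 57.3 kb for the unshared ones. Of the 63 shared intervals without RB in all 8 V5 lists, 8 had an RB interval within 1 kb, and their median distance was 24.6 kb. Nearness to RB was thus not particular to the 108 sites.

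Sites near RB had fewer K185R intervals than sites far from it. No K185R list had an interval at 12 of the 20 near sites (60.0%, Wilson interval 38.7 to 78.1), against 18 of the 88 far ones (20.5%, 13.3 to 30.0). The untreated K185R list had one at 7 of 20 (35.0%) and 57 of 88 (64.8%), and the K185R doxycycline list at 2 of 20 and 41 of 88 (46.6%). In WT lists the shares were 50.0% and 62.5% with doxycycline, and 50.0% and 58.0% untreated. Of the 379 shared RB intervals 52.8% had no K185R interval, and of the 2344 unshared intervals without RB 69.2% had none. Over all 3874 intervals, 40.4% had an interval in at least 1 K185R list. The 20 near sites are too few to tell their share from that of either class or of the whole list. The median summit had 8.0 reads at the near sites and 7.0 at the far ones in the WT doxycycline plus GSK2879552 list. This split was chosen after its values were seen.

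The 8 sites within 100 bases of an RB interval had no interval in any K185R list. Of these, 5 were in the WT inhibitor pair alone, 1 was in 3 WT lists and 2 were in all 4, with 5 to 14 summit reads in WT with doxycycline plus GSK2879552. At chr15:79165103-79165325, for example, WT had 9 reads with doxycycline plus GSK2879552 and 13 with GSK2879552, and a VCaP RB interval with a fold of 5.25 lay 14 bases away. At chr3:143690396-143690637 WT had 5 reads in each inhibitor list, with a VCaP RB interval 49 bases away and one of C4-2 193 bases away. For comparison, 40.4% of all 3874 intervals had an interval in at least 1 K185R list, and 52.8% of the 379 shared RB intervals had none. These few sites were picked out after their values were seen, so no difference from these shares is claimed.

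The 12 sites with a K185R interval but no further WT interval had 4 to 12 summit reads in WT with doxycycline plus GSK2879552. At chr13:70521009-70521233 the untreated K185R list had 6 reads, and WT had 8 with doxycycline plus GSK2879552 and 5 with GSK2879552. At chr1:48208928-48209118 the K185R lists had 5 reads with doxycycline plus GSK2879552, 6 with GSK2879552 and 9 untreated, while WT had 5 and 4 in the inhibitor lists. No RB interval was within 1 kb of any of the 12.

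**Figure D5:**
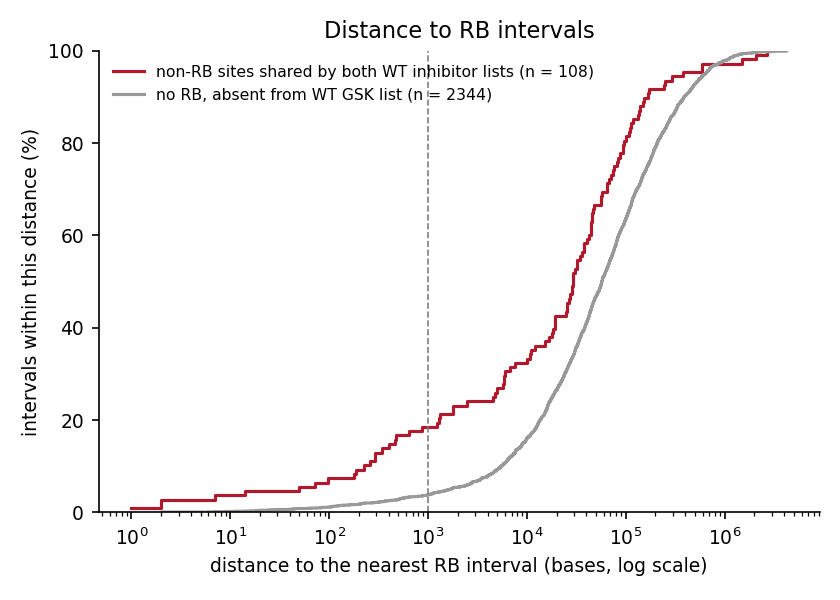
Lines give the percentage of intervals with an RB interval of C4-2 or VCaP within a given distance (log scale, bases), in red for the 108 sites and in grey for the 2344 unshared intervals without RB. At the dashed line, 1 kb, the red line stands at 18.5% and the grey one at 3.8%.

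The sites lay on all 22 autosomes, X, Y and the mitochondrial genome. Chromosome 1 held 12, chromosome 7 held 9 and chromosome 2 held 8, and no neighbouring sites were closer than 254 kb. Of the 108, 12 lay within 5 Mb of the longest stretch without any interval on their chromosome. A further 3 lay within 100 kb of a chromosome start or its last interval, and 1 on mitochondrial DNA. The other 92 (85.2%) are called in the arms below. No centromere map was used, so sites counted outside the arms can still lie on an arm. The share outside the arms was 14.8% for the 108 sites, 14.0% for the shared RB intervals, 8.11% for the unshared intervals without RB and 67.5% for the 419 intervals found in all 8 lists. Over all 3874 intervals it was 17.5%. All 7 sites with a local background of at least 10 times the floor were outside the arms. Outside the arms, 14 of 16 sites had an interval in the untreated K185R list, against 50 of 92 in the arms. In the arms alone, 29 of 92 sites had no K185R interval. Of the 7 sites of high background, chr7:57555540-57555841 had 28 and 38 reads in the K185R lists with GSK2879552 and untreated, and 31, 27, 36 and 29 in the WT lists with both agents, GSK2879552, doxycycline and none. Its background was 33.1 times the floor. Genes at these positions were not assigned, since the gene table used here follows another genome build than the hg19 of the intervals.

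The strongest site lay at chr12:6716674-6716910 (hg19), in all 4 WT lists and in no K185R list. Its fold was 10.3 with 14 reads in WT with doxycycline plus GSK2879552, 6.82 with 9 reads in WT with GSK2879552, 3.91 with 4 reads in WT with doxycycline and 7.84 with 11 reads in untreated WT. A VCaP RB interval with a fold of 7.1 and 20 reads lay 72 bases away. The fewest reads were thus in the doxycycline list, the longest of the V5 lists. The other sites with all 4 WT lists and no K185R list were chr18:61637807-61637997, 7 bases from a C4-2 RB interval, and chr6:154235663-154235853, 595.9 kb from any. The chromosome 18 site had 7, 9, 6 and 9 reads in the 4 WT lists in the same order, and the chromosome 6 site had 5, 5, 5 and 6.

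At chr7:38948614-38948859 the fold was 9.67 with 12 reads in WT with doxycycline plus GSK2879552 and 9.24 with 12 reads in WT with GSK2879552. The K185R GSK2879552 list also had an interval there, with a fold of 4.95 and 5 reads, and no list without the inhibitor had one. The nearest RB interval was 111.7 kb away. It was the strongest of the 22 sites limited to lists with GSK2879552.

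The 4 strongest sites of low background in the WT inhibitor pair alone lay at chr10:99185554-99185804, chr5:10249840-10250084, chr16:15736878-15737094 and chr18:48723966-48724229. In WT with doxycycline plus GSK2879552 their summits had 11, 10, 9 and 8 reads, and in WT with GSK2879552 4, 7, 8 and 7. The chromosome 10 site lay 2 bases from a VCaP RB interval and 41 from one of C4-2. The chromosome 18 site directly adjoined a VCaP RB interval and lay 22 bases from one of C4-2. The other 2 were 57.6 kb and 6.79 kb from RB.

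The strongest sites with 7 lists had intervals with and without the inhibitor in both proteins. At chr1:16750544-16750869 the K185R lists had 10 reads with GSK2879552, 12 with doxycycline and 20 untreated, with folds of 8.03, 8.27 and 12.9. The WT lists had 13, 5, 15 and 13 reads with doxycycline plus GSK2879552, GSK2879552, doxycycline and none, with folds of 9.6, 5.19, 9.94 and 10.3. Its summits in all these lists lay within 7 bases of the one in WT with doxycycline plus GSK2879552. The nearest RB interval was 56.7 kb away.

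At chr2:232443598-232443998 the K185R lists had 13 reads with doxycycline plus GSK2879552, 7 with doxycycline and 25 untreated. The WT lists had 13, 11, 12 and 18 reads in the same order of treatments as above. Only the K185R GSK2879552 list had no interval there. At chr1:154797869-154798220 the K185R lists had 6, 6, 7 and 11 reads, and the WT lists 11, 7 and 8, with none untreated. These sites had the highest or joint highest read number in the untreated K185R list, the deepest of the V5 lists.

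Sites with 7 lists also stood near chromosome ends and interval-free stretches. The site chr7:9889-10226, at the start of the chromosome, had folds of 6.08, 5.24 and 7.76 in the K185R lists with GSK2879552, with doxycycline and untreated. In WT it had 9.86, 5.19, 5.38 and 7.3 with both agents, GSK2879552, doxycycline and none. The site chr12:38017130-38017374 had 12, 15 and 17 reads in the K185R lists with both agents, with GSK2879552 and untreated, and 16, 15, 18 and 16 in the WT lists. A C4-2 RB interval lay 637 bases from it. The site chr16:32296624-32296989 had folds of 6.9, 5.85 and 12.6 in K185R with GSK2879552, doxycycline and none, and of 8.89, 5.82, 8.94 and 5.08 in the 4 WT lists.

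Some sites only just met the rule. The smallest overlaps with the WT GSK2879552 interval were 21 bases at chr8:84763202-84763392 and 25 bases at chr10:88699707-88699897, with 5 and 4 summit reads. Nearest to RB were the chromosome 18 site that adjoined an RB interval and chr1:155658333-155658543, 2 bases from a VCaP RB interval. Just outside the rule stood chr9:140045244-140045434 and chr11:1968333-1968523, which touched an RB interval by 2 and 3 bases. Their folds were 4.85 with 7 reads and 5.28 with 6 reads, and each was in the WT inhibitor pair alone.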

How the data were processed

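Quality control with FastQC 0.11.9, SAMtools 1.2, the aligner BWA 0.7.9a, the peak caller MACS2 2.1.0 and the genome build hg19 are listed in the submitters' processing notes. The sources used here give no settings, duplicate handling or control libraries. The interval names say that libraries were merged for the V5 lists, and the joining of the 2 C4-2 RB libraries is not stated. The authors deposited for each interval a fold (linear ratio), a p-value and q-value as −log10, a score (10 times −log10 q) and the summit position as bases from the interval start. In MACS2 the fold is summit reads plus 1 over background plus 1, and p is a Poisson upper tail. Both equations together gave the summit reads and local background of an interval, and −log10 p recomputed from them was off by at most 0.00016. Where 2 read numbers matched, the one with whole background reads per 10 kb was kept. The solution and the overlaps were tested on simulated data and against bedtools 2.31.1. Depth is the floor divided by the smallest interval width, in reads per kilobase. Overlap means at least 1 base, and coordinates count from 1. Python 3.11.15, pandas 2.3.3 and SciPy 1.17.1 were used. Sites were named by −log10 q rank within sets of lists and by nearness to the limits of the rule. The sites, sets and measures were chosen with earlier results of these data known. Planned gene, promoter and motif descriptions were not made, because no hg19 sequence or annotation was used here. Reads from PCR without molecular identifiers are not independent, so intervals cover counting error only.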

Additional observations from a re-analysis of the deposited data

Results flagged for a closer look

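Doxycycline went with opposite differences in the number of the 108 sites that had a V5 interval. In K185R the number was 43 with doxycycline and 64 untreated, a difference of -21. In WT it was 65 with doxycycline and 61 untreated, a difference of 4. At the 108 sites the WT shares were within counting error of each other (60.2%, 50.8 to 68.9, against 56.5%, 47.1 to 65.4). Over all 3874 intervals of the WT doxycycline plus GSK2879552 list the signs were the same, so the pattern is not particular to these sites. There K185R had 24.6% with doxycycline and 32.7% untreated, and WT 35.4% and 31.1%. The 2344 unshared intervals without RB had 13.1% and 22.4% in K185R, and 24.4% and 11.7% in WT. Among the 379 shared RB intervals both proteins had fewer with doxycycline, with 19.5% and 30.9% in K185R and 41.2% and 58.0% in WT. What drew attention is that the single K185R pair and the single WT pair of lists moved in opposite directions; the difference was not tested. The signs were the same under each of the 8 alternatives, with K185R differences of -25 to -9 and WT differences of 1 to 6. Keeping the sites of all 8 lists adds equally to every list, so its differences of -21 and 4 could not change. The alternatives also draw on the same lists and mostly on the same sites. List length moved the same way, with 22328 and 55681 intervals in K185R and 64025 and 15099 in WT, and its part in the result was not tested.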

How the results depend on the processing

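Of 88 values recomputed (11 results under 8 alternatives), 70 stayed within the counting interval of the main value, or within 1.5 times for the number of sites, and 18 did not. With −log10 q of at least 5 in the V5 lists, 36 sites were left, with a median fold of 7.6, 10 summit reads, a background of 2.59 times the floor and 30.6% in the K185R GSK2879552 list. With at least 6 summit reads in both WT inhibitor lists, 67 sites were left, with a median fold of 6.42, a background of 2.59 times the floor and 65.7% in the untreated WT list. With the sites of all 8 lists kept there were 171, and the shares were 45.6% in K185R with doxycycline plus GSK2879552, 64.3% with GSK2879552, 62.0% with doxycycline and 74.3% untreated, and 74.9% and 72.5% in WT with doxycycline and untreated. By construction, each kept site adds to every share. With summits within 100 bases, 30.9% of the sites were in the K185R doxycycline list. Without sites of high background, 8.91% lay outside the arms. The first 2 alternatives keep the stronger intervals by construction. Leaving out replicates was not possible, since libraries are joined in 1 list per group. No paired analysis was possible because the lists carry no replicate numbers. Depth limits absence: a summit of 3 reads was the lowest called in any V5 list.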

Other observations

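The 63 shared intervals without RB that had an interval in all 8 V5 lists were stronger than the 108 sites in the WT doxycycline plus GSK2879552 list, with a median fold of 7.28 and 12 summit reads, against 5.95 and 7.5 reads. Of the 63, 17 lay outside the arms, 15 had a local background of at least 10 times the floor, and 8 had an RB interval within 1 kb. One of the 108 sites lay on mitochondrial DNA, at chrM:5249-5501. It had a fold of 3.25 on a background 77.0 times the floor, with 41 reads in WT with doxycycline plus GSK2879552, 35 with GSK2879552 and 33 untreated, and 26 in K185R with doxycycline.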
